A study of Mus musculus with 35 samples.

Results

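Activated microglia are the nuclei of hippocampal microglia that carried at least 2 unique molecular identifiers (UMIs, counted RNA molecules) of Axl, Itgax, Csf1, Lpl, Igf1 and Bcar3 together. A nucleus counted as microglial when 8 myeloid genes (Csf1r, Inpp5d, Dock8, Ikzf1, Ptprc, Runx1, Ly86 and Cd84) gave at least 5 UMIs from at least 3 of those genes and at least 0.2% of all its UMIs. Nuclei with more than 2 UMIs of the macrophage genes Mrc1, F13a1 and Cd163, or more than 3 of the neuronal genes Snap25 and Rbfox3, were set aside. The rule found 2196 activated nuclei among 9737 microglia and 142840 barcodes with at least 500 genes, in 14 libraries. The nuclei were thus chosen by their UMIs of the rule genes, and for that reason the levels of these genes and the comparison of activated with other microglia are given as a description, without a test.

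The 14 nuclei libraries came from the hippocampus of C57BL/6 mice aged 9 months, each made with droplet-based 3′ chemistry. Wild-type (WT) mice gave 3 libraries, PS19 mice 3, CLEAR mutant mice (CLEAR) 4, and CLEAR mutant mice carrying the PS19 transgene (CLEAR_PS19) 4. PS19 mice express mutant human tau from the prion protein promoter. That promoter is active mainly in neurons. The CLEAR mutation disrupts, as known of the study, the CLEAR element of Atp6v1h, a subunit of the lysosomal proton pump. The last library of each group came from a female and the others from males. Bulk RNA-seq of hippocampus covered WT and PS19 mice at 4 months (6 and 6 libraries) and at 9 months (5 and 4 libraries), without CLEAR mutants. The labels number the samples of a group but do not name the animals, so p-values here measure the spread between these samples.

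Microglia are the resident macrophages of the brain, and near amyloid, tau or myelin debris they leave a surveying, homeostatic state and take up an activated one known as disease-associated. That state lowers purinergic and other surveillance receptors and raises genes of lipid handling, lysosomes, adhesion and growth factors, in part through the lipid receptor TREM2. TFEB, TFE3, MITF and TFEC, the MiT/TFE factors, bind CLEAR elements in genes of the lysosome and of the vacuolar ATPase (V-ATPase), which acidifies it.

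Promoter windows of 4 genes that define or lead the state are shown first, because each carries 1 of the motifs searched for. These were the CLEAR core of MiT/TFE factors (CACGTG), the M-box (TCATGTG), a PU.1 site (GAGGAAGT) and an AP-1 site (TGANTCA). None of the windows shown holds the M-box. Capitals mark a match. The sequences are from RefSeq on GRCm38.p6, written 5′ to 3′ on the strand of the gene, and each ends 10 bases before the annotated start.
Bcar3 promoter (chr3:122419507-122419746, plus strand): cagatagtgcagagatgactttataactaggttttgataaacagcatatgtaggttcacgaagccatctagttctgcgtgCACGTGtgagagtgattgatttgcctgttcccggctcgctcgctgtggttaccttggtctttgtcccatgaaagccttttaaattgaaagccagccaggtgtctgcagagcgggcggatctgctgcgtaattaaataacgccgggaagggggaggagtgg
Itgax promoter (chr7:128129300-128129539, plus strand): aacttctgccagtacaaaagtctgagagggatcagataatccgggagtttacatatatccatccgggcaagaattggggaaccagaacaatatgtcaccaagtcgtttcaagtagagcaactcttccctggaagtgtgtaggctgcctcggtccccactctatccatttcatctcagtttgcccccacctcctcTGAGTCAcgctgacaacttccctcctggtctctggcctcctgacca
Spp1 promoter (chr5:104434861-104435100, plus strand): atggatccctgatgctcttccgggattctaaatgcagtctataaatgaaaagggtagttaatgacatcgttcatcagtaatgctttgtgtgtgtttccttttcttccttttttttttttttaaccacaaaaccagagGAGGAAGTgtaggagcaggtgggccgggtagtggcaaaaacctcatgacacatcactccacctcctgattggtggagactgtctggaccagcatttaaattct
Cybb promoter (chrX:9469335-9469574, minus strand): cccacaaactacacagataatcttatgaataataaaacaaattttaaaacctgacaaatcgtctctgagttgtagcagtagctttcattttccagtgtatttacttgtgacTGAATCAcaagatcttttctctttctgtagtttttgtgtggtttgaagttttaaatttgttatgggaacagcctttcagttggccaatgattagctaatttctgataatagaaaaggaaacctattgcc
Over 32851 RefSeq windows of 300 bases (250 before to 50 after a start), searched on both strands, CACGTG occurred in 7.15%, TCATGTG in 3.77%, GAGGAAGT in 3.20% and TGANTCA in 7.81%. None of these motifs overlaps another in its letters. Of the 6 activation genes, 5 had an entry, with 6 windows in all. Bcar3 held CACGTG in 1 of its windows, and Itgax and Igf1 held TGANTCA. Among the 25 genes that stood highest in activated nuclei described further on, 19 had an entry: CACGTG occurred in 1 (Etl4), TCATGTG in 2 (Gm15155 and Ifi207), GAGGAAGT in 1 (Spp1) and TGANTCA in 4 (Cybb, Gpnmb, Ikbke and Plaur). These 19 genes had 24 windows. By window, CACGTG occurred in 4.17% of them, TCATGTG in 8.33%, GAGGAAGT in 4.17% and TGANTCA in 16.7%. A match is a stretch of letters and shows no binding.

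The activated state was found mainly in mice with the tau transgene. Per library, activated nuclei made up 0.739%, 1.96% and 0.907% of microglia in WT, and 0.891%, 1.28%, 2.09% and 1.22% in CLEAR. In PS19 they made up 53.3%, 58.4% and 15.1%, and in CLEAR_PS19 7.79%, 7.80%, 36.1% and 4.68%. Every library with the transgene lay above every library without it. Group means for the mice without the transgene were 1.20% ± 0.662 (SD, n = 3; WT) and 1.37% ± 0.509 (SD, n = 4; CLEAR). With the transgene they were 42.3% ± 23.7 (SD, n = 3; PS19) and 14.1% ± 14.8 (SD, n = 4; CLEAR_PS19). Over both CLEAR backgrounds the mean difference with tau was 26.9 points. An exact two-sided permutation test within background gave p = 0.00143, the smallest that its 1400 relabellings can give. The share counts the UMIs that the rule used, and the rule was chosen with earlier results of these data known. This p-value is therefore not independent of that choice.

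The share in CLEAR_PS19 was 28.2 points below that in PS19, a difference that did not pass an exact two-sided permutation test (p = 0.143 over 35 relabellings, which can reach 0.0286). This test, too, uses the UMIs that the rule used, so its p-value is not independent of the rule. The third CLEAR_PS19 library, at 36.1%, exceeded the female PS19 library, at 15.1%, so the groups overlapped. Between libraries whose non-microglial profiles resembled each other most, the males of PS19 averaged 55.9% and the matching CLEAR_PS19 male had 36.1%. The 2 females had 15.1% and 4.68%. In both of these pairings the value was lower in CLEAR_PS19, by 19.7 and 10.5 points, and neither pairing is large enough for a test. The first and second CLEAR_PS19 libraries stood apart with the first and second CLEAR libraries and have no PS19 partner, so their library set and the genotype cannot be told apart. Without these 4 libraries the difference was -21.9 points (exact permutation p = 0.4).

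**Figure D1:**
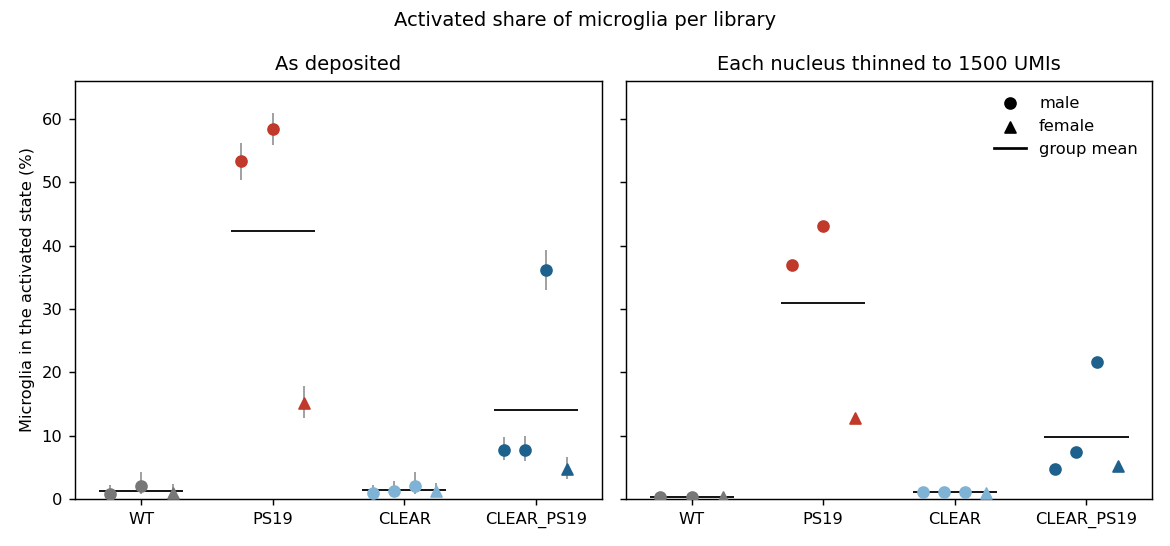
Share of microglia in the activated state (y axis, %) in each of 14 libraries, by group (x axis), as deposited with 95% exact binomial intervals (left) and after each nucleus was thinned to 1500 UMIs (right). Circles are males, triangles females and lines group means; all 7 libraries with the tau transgene sit above the 7 without it in both panels, and PS19 and CLEAR_PS19 overlap.

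Depth and the level in other cell types were set beside these shares. With every nucleus thinned to 1500 UMIs, which left out 323 of 1153 WT, 568 of 3560 PS19, 694 of 1825 CLEAR and 1252 of 3199 CLEAR_PS19 microglia, the mean shares were 0.362%, 31.0%, 1.07% and 9.75%. In nuclei rich in oligodendrocyte RNA and without microglial UMIs, 2.69% to 11.3% per library carried at least 2 UMIs of the 6 activation genes, mostly Csf1, which 16.8% to 35.6% of them carried. These nuclei had median depths of 1531 to 2920.5 UMIs, against 1135 to 2566 in microglia. Every WT and CLEAR library had a lower share in microglia than in these nuclei, so no activated state is read from those shares. Whether the UMIs in these deeper nuclei are their own or free RNA was not tested. Every transgenic library had a higher one, in the nearest case 4.68% against 2.69%. Itgax was found in at most 0.297% of the oligodendrocyte-rich nuclei. Of the 13 activated WT nuclei, 9 were called doublets by Scrublet, as were 9 of 24 in CLEAR, 168 of 1670 in PS19 and 66 of 489 in CLEAR_PS19. The description below therefore rests on the 2159 activated nuclei of the 7 libraries with the transgene, except where all 2196 are named. No activated nucleus shared its barcode with an activated nucleus of another library.

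The 6 activation genes were used unevenly. Among all 2196 nuclei, Csf1, a growth factor that sustains microglia, was found in 55.6%, and Axl, a receptor for phosphatidylserine-bound ligands, in 54.6%. Bcar3, a signalling adaptor, was found in 42.0%, Itgax, the integrin chain CD11c, in 31.8%, the growth factor Igf1 in 29.6% and Lpl, the lipoprotein lipase, in 28.3%. All 6 genes occurred together in 21 nuclei, and 17.7% qualified through a single gene. Csf1 alone admitted 4.19% of the PS19 and 10.2% of the CLEAR_PS19 nuclei. Without Csf1 in the rule, an alternative chosen after seeing the data, the shares averaged 34.6% in PS19, 10.2% in CLEAR_PS19, 0.491% in WT and 0.782% in CLEAR. The summed UMIs averaged 4.84 in PS19 and 4.12 in CLEAR_PS19, with a maximum of 43. Just outside the threshold lay 1082 microglia of the 7 libraries with a sum of 1, and just inside it 649 with a sum of 2.

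The label was checked against markers of other cell types, since the microglial markers Inpp5d and Csf1r, in 94.2% and 69.1% of the 2159 nuclei, are rule genes. Among border macrophage genes, of which Mrc1, F13a1 and Cd163 had served to set nuclei aside, Mrc1 was found in 0.973% of activated and 0.587% of other microglia and F13a1 in 0.185% and 0.217%. Pf4 and Lyve1 were at 0 UMIs in activated nuclei, which allows a share of nuclei with a UMI of up to 0.139%. The monocyte genes Ccr2, Plac8 and Ly6c2 were found in 0.926%, 0.232% and 0.0926% of them. T cell genes were at or below their share in other microglia, for example Cd3e at 0.0926% against 0.565%. Flt1, an endothelial marker as well as a receptor for vascular growth factor, was found in 25.4% of activated and 3.35% of other microglia. The endothelial genes Cldn5 (0.556% against 0.217%) and Mecom (0.417% against 0.174%) were rarer and also more frequent in activated nuclei, and the part of endothelial RNA in Flt1 was not tested. All 6 oligodendrocyte markers were more frequent in the deeper activated nuclei, for example Mag at 15.8% against 13.2% and Mog at 9.82% against 8.98%. The same held for all 5 astrocyte markers, among them the glutamate transporter gene Slc1a3 at 58.0% against 43.3% and Gja1 at 1.90% against 0.630%. Of 3 dendritic cell genes, Zbtb46 was found in 5.14% against 1.63%, Flt3 in 1.16% against 1.78% and Cd209a in 0.0463% against 0.0870%. The part of these cell types in the levels described here was not tested.

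Levels of several genes outside the rule were followed over the number of activation UMIs in a nucleus. The nuclei were split at 0, 1, 2, 3 to 4, 5 to 9 and at least 10 activation UMIs, and levels were averaged over the 3 libraries with at least 10 nuclei in every step. Spp1 (osteopontin, a secreted matrix protein) measured 31.9, 46.0, 66.5, 113, 189 and 457 CPM (counts scaled to a fixed total per library) along these steps. Lilrb4a, an inhibitory immune receptor, went from 126 CPM in the first step to 766 in the last, and Mitf from 821 to 1487. The purinergic receptor P2ry12 went the other way, at 788, 682, 563, 497, 434 and 280 CPM, and Siglech, a sialic acid receptor, went from 743 to 235. Trem2 stayed near its first value, at 204 CPM in the first step and 217 in the last. Depth moved with the steps, from a median of 1641.5 UMIs per nucleus in the first to 3401 in the last, and its part in these levels was not tested.

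**Figure D2:**
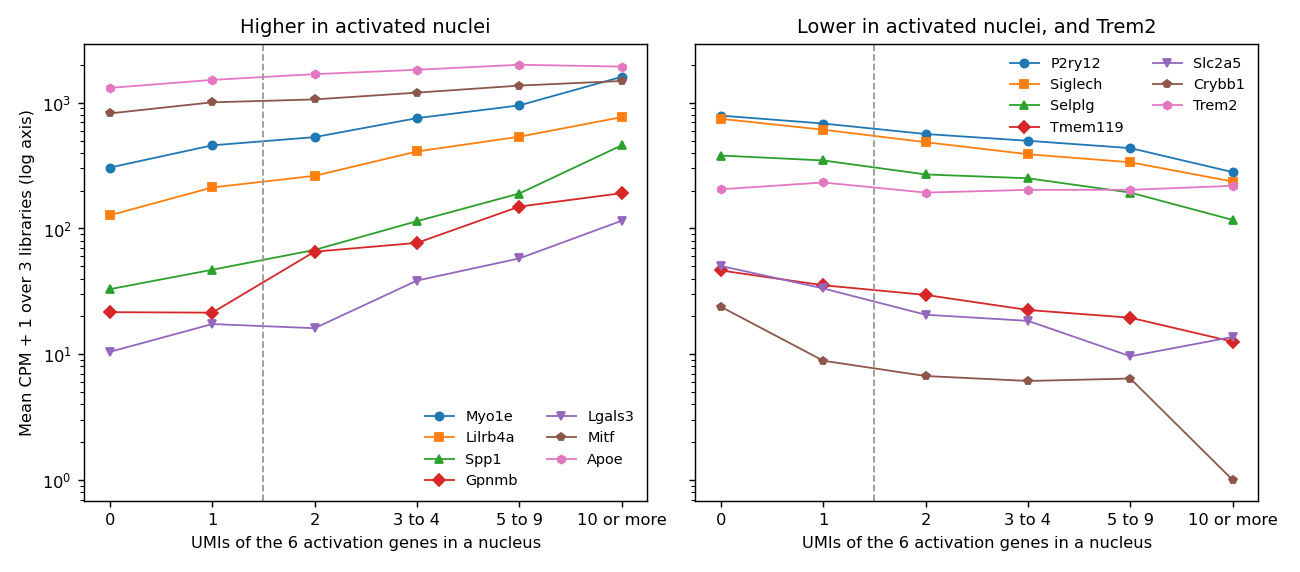
Mean CPM plus 1 over 3 libraries (y axis, log) of genes outside the rule, against the UMIs of the 6 activation genes in a nucleus (x axis); the dashed line is the threshold of the rule. Spp1 climbs from 31.9 to 457 CPM and P2ry12 drops from 788 to 280 CPM, while Trem2 is at 204 and 217 CPM at the ends.

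Within each of the 7 libraries, activated nuclei were compared with the other microglia as the log2 ratio of CPM + 5. Of 8296 genes with sufficient counts, 485 (5.85%) were higher in all 7 libraries and 566 (6.82%) lower in all 7. Here and below a ratio is the median over the 7 libraries. The median ratio over all genes was -0.01.

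Outside the rule genes, and among genes of at least 20 CPM with 1 sign in all 7 libraries, those that stood highest were of several roles. Flt1 had a ratio of 2.41 and Dkk2, a secreted Wnt antagonist, 2.36, an order that turned without CLEAR_PS19 libraries 1 and 2 (1.85 and 2.36). Lgals3 (galectin-3, a lectin that binds damaged lysosomes) stood at 2.15. Lilrb4a stood at 2.13, Rab7b, a GTPase of endosome traffic, at 2.10, Gpnmb, a lysosomal glycoprotein, at 2.10, and Spp1 at 2.07. Cybb, the catalytic subunit of the phagocyte NADPH oxidase, stood at 1.94, the chemokines Ccl6, Ccl4 and Ccl3 at 1.93, 1.90 and 1.83 (Ccl6 at 1.06 and Ccl3 at 0.85 without CLEAR_PS19 libraries 1 and 2), and Myo1e, a membrane-linked myosin, at 1.80. The 25 highest also held Fam20c, Gm42836, Gas2l3, Etl4, Ikbke, March3, Plxnc1, Cd74, Rai14, Plaur, Ifi207, Mdfic and Gm15155. Gm42836 is an antisense gene (chr3:122426443-122459060) inside the span of the rule gene Bcar3 (chr3:122294136-122530191). Its ratio therefore comes from the locus of a gene that chose the nuclei.

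Lilrb4a shows the size of these gaps. Its level in activated nuclei was 455, 451 and 220 CPM in the PS19 libraries and 368, 479, 409 and 413 CPM in the CLEAR_PS19 libraries. In the other microglia of the same libraries it was 177, 221 and 63.2 CPM, and 42.4, 37.9, 89.2 and 50.6 CPM. The female PS19 library was lowest in the activated nuclei, at a level just under the highest value of the other nuclei. Gpnmb varied more: 93.6, 142 and 81.0 CPM in activated PS19 nuclei and 25.9, 204, 77.9 and 41.3 CPM in activated CLEAR_PS19 nuclei, against 3.1 to 36.5 CPM in the other microglia of these 7 libraries.

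Genes of the homeostatic state were lower. Of 16 homeostatic genes, 13 were lower in all 7 libraries and 1 higher (Tgfbr1, 0.11), with a median of -0.61. Crybb1 stood at -1.58, the fructose transporter Slc2a5 at -1.54, Selplg at -1.07, Siglech at -0.91, Tmem119 at -0.90 and P2ry12 at -0.70. Among the 15 lowest genes chosen with the same limits were also Bank1 (-1.63), a signalling adaptor, Il7r (-1.47), Ltc4s (-1.28), an enzyme of leukotriene synthesis, and Cebpd (-1.15). Of the 8 myeloid genes that chose the microglia, Ptprc (0.26) and Cd84 (0.46) were higher in all 7 libraries, and 4 were lower, Csf1r, Inpp5d, Dock8 and Ikzf1, at -0.32, -0.50, -0.27 and -0.25.

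**Figure D3:**
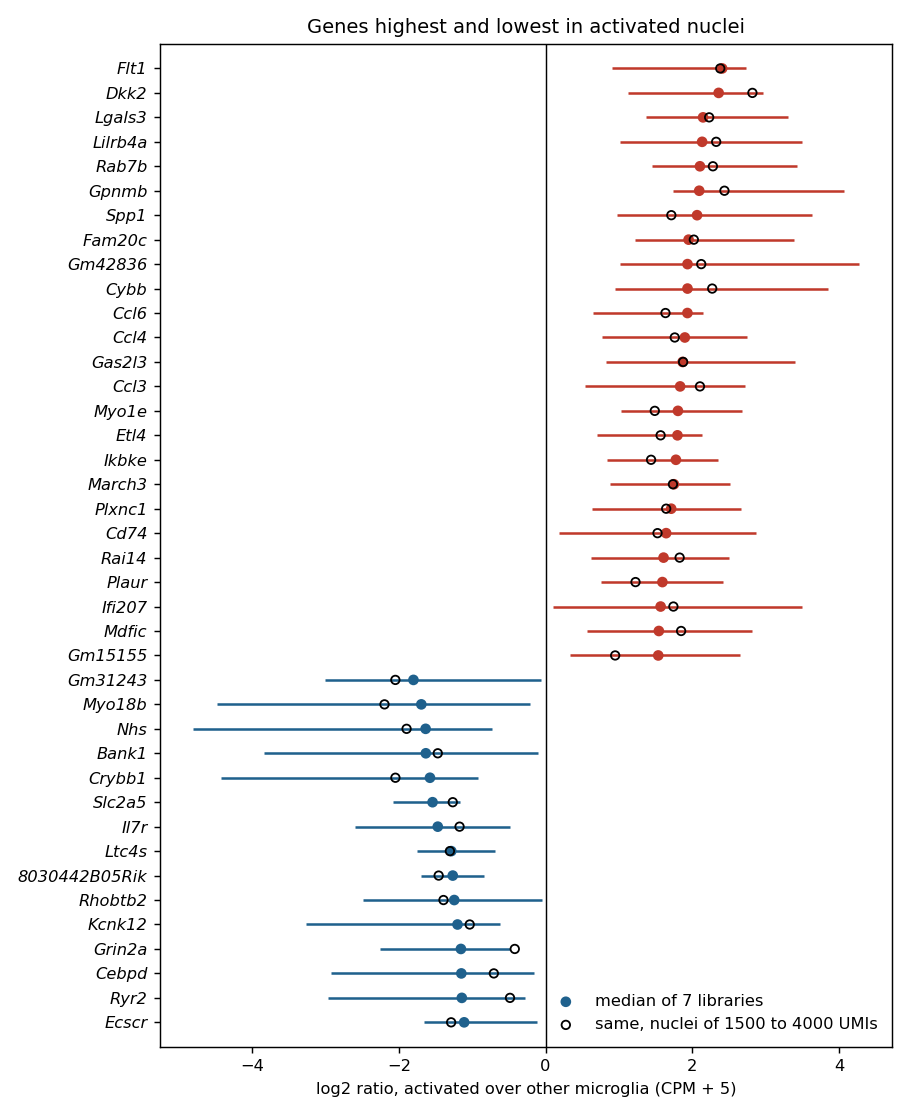
Median log2 ratio of CPM + 5, activated over other microglia (x axis), for the 25 highest and 15 lowest genes (y axis); bars span the 7 libraries and open circles repeat the median with nuclei of 1500 to 4000 UMIs. All 40 genes keep their sign in that narrower depth range. With nuclei of any depth the medians run from Flt1 at 2.41 to Gm31243 at -1.80.

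Of 24 measured disease-associated genes outside the rule, 18 were higher in all 7 libraries and none lower in all 7, with a median of 0.59. This list was drawn up with earlier results of these data known. Besides Spp1, Gpnmb, Lgals3 and the chemokines, it held Cst7, a cathepsin inhibitor (1.41), Apoe, the main lipid carrier of the brain (0.90), Ctsb (0.83), Cd63 (0.52) and Cd9 (0.43). Trem2 itself stood at 0.01 and its adaptor Tyrobp at 0.13. The chemokine levels varied between libraries. In activated nuclei they ranged from 20.7 to 207 CPM for Ccl3 and from 72.6 to 290 CPM for Ccl4.

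Among the MiT/TFE factors, Mitf was higher in activated nuclei of all 7 libraries and Tfeb and Tfe3 were not. Mitf measured 1389, 1284 and 1105 CPM in activated PS19 nuclei and 1020, 1051, 1050 and 1199 CPM in activated CLEAR_PS19 nuclei. The other microglia had 911, 910 and 700 CPM, and 485, 444, 878 and 599 CPM, so every activated value lay above every other value. Its ratio was 0.65, against 0.06 for Tfeb and -0.17 for Tfe3, and Tfec was too low to be counted as measured. Of 13 measured genes of these factors and of lysosomal nutrient sensing, 4 were higher in all 7 libraries: Mitf, Fnip1 (0.22) and Fnip2 (0.87), partners of folliculin, and Rragc (0.61), a GTPase that recruits MiT/TFE factors to the lysosome.

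The proton pump showed a mixed picture. Of 19 measured V-ATPase genes, 4 were higher in all 7 libraries, Atp6v1a (0.78), Atp6v0d1 (0.35), Atp6v1b2 (0.27) and Atp6v1c1 (0.21), and 1 lower, Atp6v0a2 (-0.75). Atp6v0d2, an alternative subunit of macrophages and osteoclasts, had the highest ratio, 1.80, and was higher in 6 of 7 libraries. Atp6v1h was higher in 4 of 7, with a ratio of 0.24. Of 35 lysosomal genes, 6 were higher in all 7 libraries and 2 lower. Cathepsin genes Ctsb, Ctsc, Ctsd, Ctsz and Ctsa and the membrane protein Cd63 made up the higher ones. The protease gene Lgmn (-0.34) was among the lower ones.

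Lipid, uptake and immune genes moved in part. Of 13 lipid genes 3 were higher in all 7 libraries, Apoe, the lipid droplet protein Plin2 (0.85) and the cholesterol exporter Abcg1 (0.43). Of 14 uptake receptors 3 were higher, Tlr2 (0.88), Cd300lf (0.58) and Cd14 (0.16), and 3 lower, Fcgr3 (-0.48), Itgam (-0.46) and Stab1 (-0.54). None of 9 class I antigen genes was higher or lower in all 7 libraries, and Cd74, the invariant chain of class II, was the single class II gene of 3 that was higher (1.64).

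Of 20 interferon-response genes 3 were higher in all 7 libraries, Ifi207 (1.57), Oasl2 (0.67) and Trim30a (0.19). Of 10 checkpoint and costimulation genes 3 were higher, Lilrb4a, Cd274 (PD-L1, 0.81) and Cd200r1 (0.45), and Vsir was lower (-0.56). Of 18 myeloid transcription factors 4 were higher, Hif1a (1.16), Bhlhe40 (0.76), Arid5b (0.39) and Rbpj (0.35). Another 4 were lower, Nfatc2 (-0.73), Sall1 (-0.68), Maf (-0.51) and Spi1 (-0.21), the gene of PU.1. Nuclei with at least 3 UMIs of proliferation genes were few, at 1.099% to 5% of activated and 1.43% to 2.54% of other microglia per library, with median depths of 2704 and 1763 UMIs.

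Activated nuclei of CLEAR_PS19 and PS19 mice were then compared with each other, each library being summed over its activated nuclei. These sums held 48385 to 2741224 UMIs. With edgeR's quasi-likelihood test (sex as covariate), 0 of 6305 genes were higher and 3 lower in CLEAR_PS19 (0.0476% called). The rule genes are left out of this count, although the Benjamini-Hochberg adjustment was made over all genes tested, rule genes included. All females lay in a library set of their own, so the sex term and that set cannot be told apart. As with the shares, CLEAR_PS19 libraries 1 and 2 have no PS19 partner, so for them set and genotype cannot be told apart. At an unadjusted p under 0.05 there were 283 higher and 184 lower, and DESeq2 called 27 genes. The number rested on single libraries: it was 6 or 19 without PS19 library 1 or 3, and 7, 183 or 14 without CLEAR_PS19 library 1, 3 or 4. The groups did not overlap for 441 genes (6.99%), 92 higher and 349 lower in CLEAR_PS19. On simulated counts with the same libraries the test recovered 66.7% of 2-fold and 100% of 4-fold changes (62 of 93 and 92 of 92). Beside these 62 and 92 calls it made 20 false ones, among 5983 genes tested. The simulated counts held no effect of sex, library set or a single library, so these rates need not hold for the real counts.

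The 3 genes were Trim5 and Trim30d, of a family of antiviral ubiquitin ligases, and Anapc15, a subunit of the anaphase-promoting complex. Trim5 had 81.2, 88.6 and 81.0 CPM in PS19 and 0, 0, 0 and 41.3 CPM in CLEAR_PS19, where the last value rests on 2 UMIs. A count of 0 allows up to 15.5, 19.7 and 2.60 CPM in the first 3 CLEAR_PS19 libraries. The fitted log2 change was -5.81 (SE 0.73, edgeR adjusted p = 0.00716), a value that depends on the prior count.

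Trim30d had 172, 291 and 139 CPM in PS19 and 0, 6.57, 4.33 and 103 CPM in CLEAR_PS19, a fitted log2 change of -4.82 (SE 0.61, edgeR adjusted p = 0.00716). Anapc15 had 406, 375 and 421 CPM against 109, 118, 184 and 248 CPM, a log2 change of -1.27 (SE 0.20, edgeR adjusted p = 0.0356). For each of these genes every CLEAR_PS19 library lay below every PS19 library, and the fourth, female one lay nearest to PS19. Trim30d passed the threshold in 16 of 16 alternative settings, Trim5 in 14 of 15 and Anapc15 in 12 of 16; Anapc15 lost its call without the first PS19, the second PS19 or the second CLEAR_PS19 library (edgeR adjusted p = 0.0659, 0.153 and 0.0602).

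All 3 genes lie on chromosome 7 (GRCm38, GENCODE annotation): Anapc15 at chr7:101863715-101901849, Trim5 at chr7:104263386-104288094 and Trim30d at chr7:104470014-104507849. Between and beside the Trim genes lie Trim34a, Trim12a and Trim30a, which did not pass the threshold, although Trim12a (edgeR adjusted p = 0.0599) passed it in 9 of 16 alternative settings. Trim12a, at chr7:104299894-104315466, had 150, 198 and 136 CPM in PS19 and 0, 0, 0 and 165 CPM in CLEAR_PS19. It was chosen after its values were seen, as a neighbour of Trim5.

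For the Trim genes the low values recurred in the other microglia. There Trim5 had 1 UMI in all over the first 3 CLEAR_PS19 libraries (0 to 0.615 CPM), against 22.3 to 108 CPM in the 11 other libraries, CLEAR without the transgene included. Trim12a had 4 UMIs (0 to 1.65 CPM) against 75.6 to 232 CPM, and Trim30d 10 UMIs (1.35 to 3.08 CPM) against 48.4 to 240 CPM. For these genes the 3 libraries lay below each of the other 11 libraries, the 4 CLEAR libraries among them. Trim12c, in contrast, had 72.0 to 94.6 CPM in the 3 libraries and 41.5 to 111 CPM in the others. Anapc15 had another pattern in the other microglia. The PS19 libraries, at 393, 345 and 282 CPM, lay above all the others, with 66.8 to 102 CPM in WT, 63.9 to 120 CPM in CLEAR and 51.9 to 186 CPM in CLEAR_PS19. Of the 60-base stretches of the Trim5 transcripts 28.8% also occur in other genes, most of them in Trim12c. For Trim30d that share is 6.40% and for Anapc15 2.06%. How reads from such stretches were counted was not tested.

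**Figure D4:**
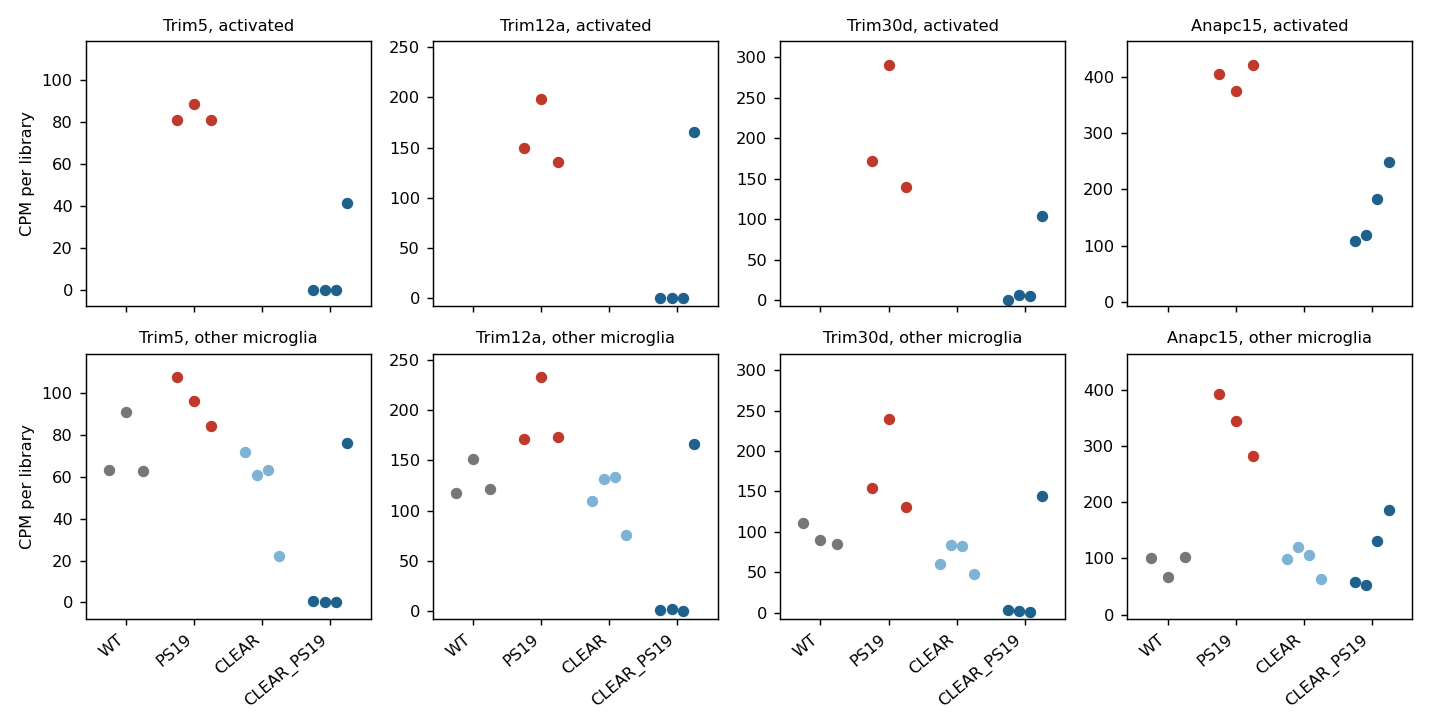
CPM (y axis) of 4 chromosome 7 genes in each library by group (x axis), summed over activated nuclei (top, 7 libraries) and over other microglia (bottom, 14 libraries). Trim5, Trim12a and Trim30d are near 0 in the first 3 CLEAR_PS19 libraries in both states and present in the fourth, in WT, in PS19 and in CLEAR.

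No list fixed for this comparison held a called gene. Atp6v1h had 134, 134 and 90.7 CPM in activated PS19 nuclei and 51.8, 118, 84.8 and 103 CPM in activated CLEAR_PS19 nuclei, so the groups overlapped. Its log2 change was -0.58 (edgeR adjusted p = 0.553, and 0.174 to 1 over the other settings). Tfeb, Tfe3 and Mitf changed by -0.07, 0.05 and -0.23, none of which passed the test. For 32 lysosomal genes the median change was 0.25, for 13 homeostatic genes 0.21 and for 24 disease-associated genes 0.28, against -0.0005 for all genes.

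The interferon-response genes lay lowest among the lists. Of 17 tested, 16 had negative values, 0 passed the threshold and 10 had an unadjusted p under 0.05, against 7.41% of all genes, with a median of -0.88. For 6 the groups did not overlap, each lower in CLEAR_PS19, against 5.54% of all genes. Per 10000 UMIs of activated nuclei, their sum ranged from 18.9 to 33.6 in PS19 and from 11.6 to 18.4 in CLEAR_PS19. Oasl2 had 62.4, 164 and 101 CPM against 25.9, 46.0, 43.3 and 41.3 CPM (log2 change -1.47, edgeR adjusted p = 0.196, and 1.57e-04 to 1.00 over the alternative settings). It was chosen after its values were seen. Trim30a is on this list and in the chromosome 7 cluster.

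A separate fit asked whether the gap between activated and other microglia differed between CLEAR_PS19 and PS19, with the library as block. Both states are divided by the rule, and the other microglia were not alike: nuclei with 1 activation UMI made up 43.0%, 46.1% and 21.8% of them in PS19 and 9.81%, 11%, 31.8% and 8.35% in CLEAR_PS19. A difference of gaps and this difference in makeup cannot be told apart. Of 12231 genes, 23 passed the adjusted threshold of 0.05 (0.188%): the gap was larger in CLEAR_PS19 for 20 genes and smaller or more negative for 3. At an unadjusted p under 0.05 there were 799, and DESeq2 called 5. Without PS19 library 2 or 3, 11 or 42 were called, and without CLEAR_PS19 library 1, 3 or 4 the calls numbered 40, 110 or 12. Lilrb4a had gaps of 1.34, 1.01 and 1.72 on the log2 scale in PS19 and 2.97, 3.50, 2.13 and 2.91 in CLEAR_PS19. The difference was 1.47 (SE 0.20, edgeR adjusted p = 1.39e-05), with no overlap between the groups.

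The CPM of Lilrb4a overlapped between the groups in activated nuclei and in the other microglia, where the third CLEAR_PS19 library (89.2 CPM) lay above the third PS19 library (63.2 CPM).

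Cd74 had gaps of 0.46, 0.18 and 1.34 in PS19 and 2.85, 2.87, 1.64 and 2.41 in CLEAR_PS19, a difference of 2.45 (SE 0.31, edgeR adjusted p = 2.66e-06). H2-Aa, a class II chain, differed by 3.28 (SE 0.66, edgeR adjusted p = 0.00983), but rests on 31, 59 and 2 UMIs in activated PS19 nuclei and 8, 5, 11 and 0 in activated CLEAR_PS19 nuclei. H2-Aa lost its call in 4 of 14 alternative settings (without the second PS19 library, edgeR adjusted p = 0.646), whereas Cd74 and Lilrb4a kept theirs in all 14.

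The secreted protein Spp1 had gaps of 1.67, 1.72 and 0.98 in PS19 and 2.07, 3.63, 2.98 and 2.62 in CLEAR_PS19 (difference 1.52, SE 0.30, edgeR adjusted p = 0.00898). Flt1 (1.45), Mdfic (1.29), March3 (0.86), Bcl2 (1.13), an inhibitor of cell death, and Apoe (0.86) also had the larger gap in CLEAR_PS19, although with DESeq2 none of Flt1, Mdfic, March3 and Bcl2 was called (adjusted p = 0.4659, 0.529, 0.921 and 0.9998), nor were Apoe (0.529), Spp1 (0.171) and H2-Aa (0.171). The first 4 passed in 6, 10, 6 and 9 of 14 alternative settings, and each lost the call without the second PS19 library (edgeR adjusted p = 0.532, 0.188, 0.337 and 0.396), as did Spp1 without the second CLEAR_PS19 library (0.0913). Without the first CLEAR_PS19 library Bcl2 was at 0.68 (edgeR adjusted p = 0.280). All 16 homeostatic genes had negative values (median -0.37, against -0.02 for all genes); edgeR called 0, with 9 at an unadjusted p under 0.05. The 3 genes called in the other direction were Nav3 (-0.49), the kinase gene Prkce (-0.84) and Grip1 (-2.41), which passed in 4, 6 and 8 of 14 alternative settings. Without Scrublet doublets Grip1 was at -1.13 (edgeR adjusted p = 0.920).

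Some of the called genes belong to oligodendrocytes, such as the myelin gene Mal (0.90) and, with it, Edil3 (0.88) and Apod (0.85). Markers of that cell type moved alongside: a list of 6, with none at 0, summed to 22.6 to 43.1 per 10000 UMIs in activated CLEAR_PS19 nuclei and to 12.1 to 24.3 in activated PS19 nuclei. In the other microglia the sums were 10.5 to 27.1 and 12.8 to 18.7. Without the nuclei that Scrublet called doublets, the differences were -0.38 for Apod and -0.25 for Edil3, and neither was called. Apod was chosen after its values were seen. Apoe (0.86) kept its call in 11 of 14 alternative settings and was at 0.45 (edgeR adjusted p = 0.226) without the 4 libraries that stood apart.

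Bulk hippocampus offered a readout that the rule did not use. In a bulk sample fewer cells of a type and less RNA per cell cannot be told apart. At 9 months, edgeR with Benjamini-Hochberg adjustment over 16133 genes called 1239 genes higher (7.68%) and 821 lower (5.09%) in PS19. At 4 months it called 3 genes (0.0186%), and for 872 genes (5.41%) the tau effect differed between ages. Without the fifth PS19 sample the calls at 9 months fell to 1185.

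Of the 6 activation genes, 3 were higher in PS19 at 9 months, against 7.68% of all genes. Itgax ran from 0.0721 over a median of 0.508 to 0.833 CPM in 5 WT samples, and from 17.1 over 25.98 to 34.1 CPM in 4 PS19 samples. The log2 change was 5.74 (SE 0.42, edgeR adjusted p = 2.07e-09). Csf1 rose from 32.1 ± 2.12 (SD, n = 5) to 57.1 ± 6.48 CPM (SD, n = 4; log2 change 0.83), and Axl from 61.2 ± 1.39 to 107 ± 15.6 CPM (SD, n = 5 and 4; log2 change 0.80). For these genes the groups did not overlap. Igf1 (0.42, edgeR adjusted p = 0.0665), Lpl (0.22) and Bcar3 (0.09) did not pass the threshold.

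Of the 25 genes highest in activated nuclei, 22 were tested in bulk. At 9 months 16 were higher in PS19 (7.68% of all genes), 0 lower (5.09%) and 6 not called, with a median log2 change of 1.29. The 8 myeloid rule genes rose by a median of 1.26, so a rise of this size was not particular to genes high in activated nuclei. For 13 the groups did not overlap, as they did not for 13.2% of all genes tested. Cd74 ran from 2.73 to 9.01 CPM in WT and from 50.6 to 120 CPM in PS19, a log2 change of 4.14 (SE 0.34, edgeR adjusted p = 1.14e-08). Ccl6 rose by 3.47, Lilrb4a by 2.67, Cybb by 2.34, Gpnmb by 1.87, Spp1 by 1.76 and Lgals3 by 1.22 on the log2 scale. Flt1 changed by 0.27 (edgeR adjusted p = 0.122). At 4 months none of the 22 was called by edgeR (lowest adjusted p = 0.9999) or DESeq2, and for 11 of them the tau effect differed between ages. Their median change at 4 months was -0.08, against -0.003 for all genes. At an unadjusted p under 0.05 in edgeR there were 3 of the 22, and the share of all genes at that level is not given here.

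The genes low in activated nuclei did not fall together in bulk. Of the 15 lowest, 13 were tested; Ryr2 was lower (-0.48), Cebpd was higher (0.91) and 11 were not called. Of the 16 homeostatic genes 14 were higher in bulk PS19 at 9 months (7.68% of all genes) and 0 lower (5.09%), although 13 were lower in activated than in other nuclei. All 8 myeloid rule genes were higher in bulk as well, by a median of 1.26. In the nuclei libraries microglia made up 3.66% to 4.90% of barcodes in WT and 8.98% to 15.4% in PS19. The part of microglial number in the bulk changes was not tested. Tfeb rose by 0.57 (edgeR adjusted p = 8.98e-04), from 7.92 ± 0.539 (SD, n = 5) to 11.8 ± 1.69 CPM (SD, n = 4). Mitf changed by 0.45 (edgeR adjusted p = 0.151) and Atp6v1h by -0.05 (edgeR adjusted p = 0.669).

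**Figure D5:**
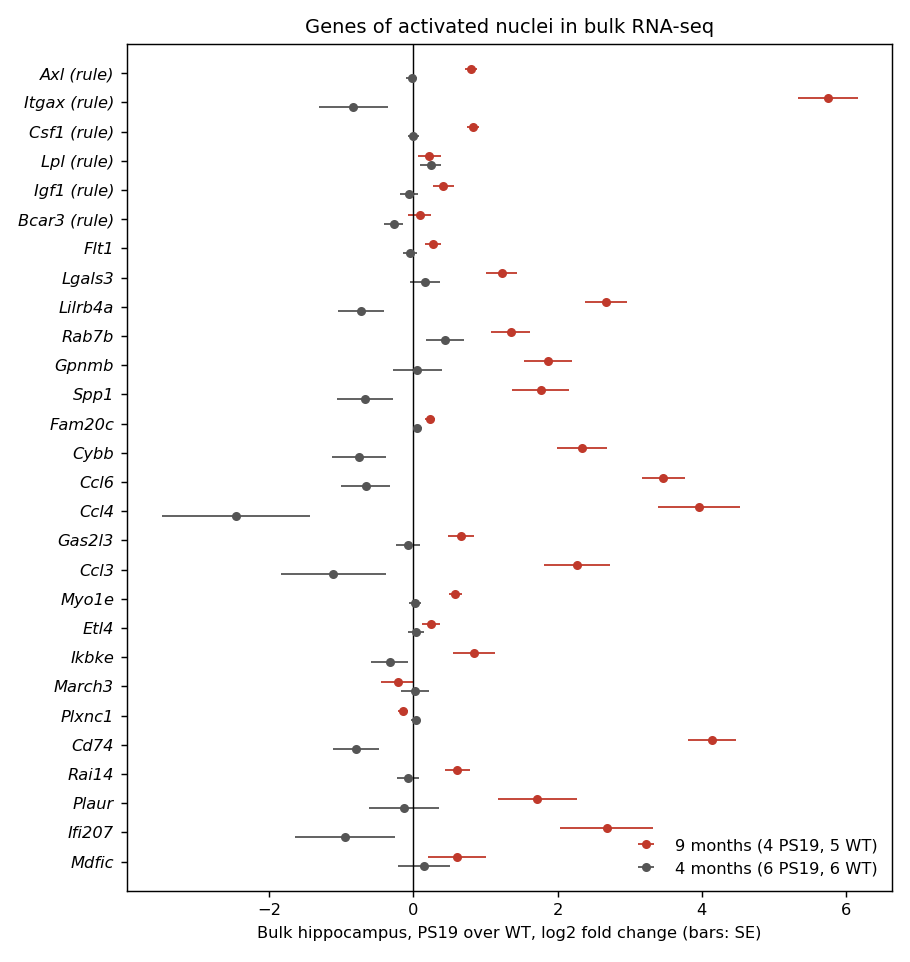
Log2 fold change of PS19 over WT in bulk hippocampus (x axis) at 9 months (4 PS19, 5 WT) and 4 months (6 PS19, 6 WT) for the activation genes and the highest genes of activated nuclei (y axis); bars are standard errors. Itgax at 5.74 and Cd74 at 4.14 lie far to the right at 9 months, and no gene shown was called at 4 months.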

How the data were processed

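Nuclei matrices held unnormalized UMI counts, made by the authors with Cell Ranger and Seurat on mm10, and bulk tables held raw read counts from cutadapt, STAR and featureCounts, both deposited and per the submitters' processing notes, which also name DESeq2; strand settings are not given in the sources used here. Nuclei libraries held 7540 to 16070 barcodes of at least 500 genes each, and bulk libraries 9630430 to 17182605 counts. Members, lists and rules were chosen with earlier results of these data known.

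UMIs were summed per library over activated and over other microglia. edgeR 4.0.16 (TMM, filterByExpr, quasi-likelihood test) tested these sums and, with all bulk groups in 1 fit, the bulk counts. Sex was a covariate only in the fit of activated nuclei. The fit of both states had the library as block, and the sex of the bulk samples is not given, so the bulk fit had no sex term. All p-values of these fits were Benjamini-Hochberg adjusted over all genes tested, at a threshold of 0.05. Libraries with under 10 activated nuclei were left out, so that the tau contrasts inside activated nuclei could not be fitted. Shares were compared by exact permutation tests and intervals are exact binomial, covering counting error only. Doublets (Scrublet in scanpy 1.11.5) and nuclei with more than 5 UMIs of markers of other cell types were kept in the reported values and removed in alternatives. DESeq2 1.42.0 was an alternative, as were other normalization, filters, thresholds and leaving out libraries; the rule without Csf1, the 1500 to 4000 UMI range and the ratios without CLEAR_PS19 1 and 2 were chosen after seeing the data. Named genes were the rule genes, Atp6v1h, the MiT/TFE factors, the 25 highest and 15 lowest genes of at least 20 CPM with 1 sign in all 7 libraries, up to 12 called genes per direction and called list members. The fit was tested on simulated data. Some genes are not reported here.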

Additional observations from a re-analysis of the deposited data

Results flagged for a closer look

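Single samples that stood far from the rest of their group were looked for in 239 groups of 4 or more samples, of which 21 were marked; chance marks about 1 in 20 groups. The activated share of 36.1% in the third CLEAR_PS19 library stood apart from 4.68% to 7.80% in the other 3. In activated nuclei, the fourth CLEAR_PS19 library stood apart for Trim5 (41.3 CPM), Trim30d (103 CPM), Trim12a (165 CPM), Trim34a (103 CPM) and Fam20c (207 CPM). The third stood apart for Dkk2 (62.3 CPM) and, at the low end, Ccl6 (45.0 CPM), and the first for Plaur (145 CPM).

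In bulk WT at 9 months, the third sample stood apart for Mitf (7.69 CPM), Ltc4s (1.13 CPM) and Kcnk12 (7.33 CPM), and the fifth for Ccl4 (0.317 CPM), Ccl3 (0.825 CPM) and Plxnc1 (59.7 CPM). In PS19 at 9 months the fifth sample had 4.64 CPM of Ifi207. At 4 months the marked values were Lilrb4a in the second WT sample (1.33 CPM), Rab7b in the first (1.55 CPM), Spp1 (10.4 CPM) and Ccl4 (0.084 CPM) in the third PS19 sample, and Ecscr (0.721 CPM) in the second.

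The tau effect in bulk differed between ages, by the interaction term of the edgeR fit, for 17 genes among those chosen by the naming rule, and for all 8 myeloid genes that chose the microglia, which are not listed singly. The effect at 9 months less that at 4 months, on the log2 scale, was 6.58 for Itgax, 6.42 for Ccl4, 4.93 for Cd74, 4.13 for Ccl6, 3.62 for Ifi207, 3.40 for Lilrb4a, 3.38 for Ccl3 and 3.10 for Cybb. It was 2.44 for Spp1, 1.81 for Gpnmb, 1.07 for Lgals3, 0.83 for Axl, 0.83 for Csf1, 0.82 for Cebpd, 0.55 for Myo1e, 0.55 for Tfeb and -0.51 for Ryr2.

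The CLEAR_PS19 minus PS19 difference was not the same in activated and other microglia for 23 genes, of which the naming rule took 15, by the term of the fit with the library as block; the makeup of the other microglia differed as well, as the report gives. The difference of differences was 3.28 for H2-Aa, 2.45 for Cd74, 1.72 for Slco3a1, 1.52 for Spp1, 1.47 for Lilrb4a, 1.45 for Flt1, 1.29 for Mdfic and 1.20 for Adamtsl1, which passed the threshold in 5 of 14 alternative settings and was at 0.10 without Scrublet doublets. It was 1.13 for Bcl2, 0.90 for Mal, 0.88 for Edil3, 0.86 for March3, -0.49 for Nav3, -0.84 for Prkce and -2.41 for Grip1.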

How the results depend on the processing

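The tau effect on the activated share kept its direction in all settings run. It missed the threshold only when 1 WT library was left out (exact permutation p = 0.0514), with 22.9 to 33.7 points over all libraries left out. With 1 WT library left out, every library with the transgene still lay above every library without it. The share counts the UMIs that the rule used, so no p-value of a share test is independent of the rule. The CLEAR_PS19 minus PS19 share stayed negative and uncalled, at -41.8 to -20.1 points with 1 library left out and at -4.11 points as a share of all barcodes. The number of genes called in activated nuclei depended on the setting: 3 as reported, 27 with DESeq2, 129 without a filter on low counts, 1 with at least 3 activation UMIs, 10 without Scrublet doublets, 9 without nuclei of more than 5 UMIs of other types, 103 without the 4 libraries that stood apart, and 2 to 183 with 1 library left out (2 without the second PS19, 183 without the third CLEAR_PS19). The count of 23 for the gap between states became 5, 46, 6, 42 and 102 under DESeq2, no filter, 3 UMIs, no nuclei with other types and without the 4 libraries, and 11 to 110 with 1 library left out. Differences that reversed were Slco3a1 at -0.17 and Apod at -0.29 without nuclei of more than 5 UMIs of other types, and Edil3 at -0.25 and Apod at -0.38 without Scrublet doublets. In bulk, calls numbered 1185 to 2110 at 9 months (1185 without the fifth PS19 sample) and 3 to 4 at 4 months with 1 library left out, and 11 at 4 months with DESeq2. Apart from the fewer samples, genes or nuclei of a setting, the causes were not tested. The activated sums of CLEAR_PS19 libraries 1, 2 and 4 hold 193123, 152284 and 48385 UMIs, the fewest of the 7, which limits their precision.

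Replicate numbers did not pair the samples: same-numbered activated sums correlated at 0.108, 0.00258 and -0.0966. A replicate block gave 524 calls in activated nuclei, 5 in bulk at 4 months, and shares of 26.9 (exact permutation p = 0.0156) and -25.0 points (p = 0.5, of at least 0.25). In activated nuclei the block, genotype and sex together used nearly as many terms as there are libraries. Little was left there to estimate the spread, so the 524 calls are not read as a result. The tau contrasts within activated nuclei, listed for this work, were not run, since WT and CLEAR libraries held 3 to 7 activated nuclei.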

Other observations

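Subsets among the activated nuclei were counted by UMIs of other gene lists, as a description. At least 4 UMIs of interferon-response genes were found in 54.6%, 72.1% and 39.3% of activated nuclei of the 3 PS19 libraries and in 41.2%, 36.7%, 40.5% and 16.7% of those of the 4 CLEAR_PS19 libraries, the last of which held 30 nuclei. In the other microglia of the same libraries these shares were 37.1%, 58.6% and 23.1%, and 15.4%, 11.6%, 25.3% and 12.9%. Median depth ran from 1459 to 2915 UMIs in activated and from 1119 to 2281 in other nuclei. As a sum per 10000 UMIs, the interferon-response genes were higher in activated nuclei in 6 of 7 libraries, for example at 18.9 against 16.7 in the first PS19 library and 18.4 against 9.73 in the second CLEAR_PS19 library. The fourth CLEAR_PS19 library had 11.6 against 12.9.

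At least 2 UMIs of class II genes were found in 13.5%, 14.2% and 4.92% of activated PS19 nuclei and in 13.2%, 15%, 7.25% and 6.67% of activated CLEAR_PS19 nuclei. The other microglia of the PS19 libraries had 4.84%, 7.25% and 1.02%, and those of the CLEAR_PS19 libraries 2.61%, 2.82%, 1.88% and 0.491%. The share was higher in the activated nuclei of each of these 7 libraries, as were the median depth and the sum per 10000 UMIs, for example 3.42 against 1.37 in the first CLEAR_PS19 library.

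In bulk hippocampus at 9 months, 23 of 25 tested interferon-response genes were higher in PS19 (7.68% of all genes) and 0 lower (5.09%), with a median log2 change of 2.07 against WT (edgeR, Benjamini-Hochberg adjustment over all genes). At 4 months edgeR called 0 of the 25, and all 25 had a negative value, with a median of -0.81. Over all 16128 named genes 8314 had a negative value, with a median of -0.003. Of the 25, 10 had an unadjusted p under 0.05 in edgeR. The share of all genes at that level is not given here, so this count has no background.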
